A study of Mus musculus with 16 samples.

Results

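The 26 genes described here encode 19 enzymes that build cholesterol from acetyl-CoA, 6 proteins that form or control sterol regulatory element-binding protein 2 (SREBP2), and the sterol carrier Stard4. They were taken by gene symbol from a list of the pathway whose rule uses no measured value, although the list was drawn up with earlier results of these data known. Each symbol matched 1 row, giving 26 of the 56980 rows of the count table. The list does not hold every enzyme of the pathway. All 26 genes passed the filter on low counts, as did 15385 genes in all.

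The libraries came from bone marrow-derived macrophages (BMDMs), which are macrophages grown from marrow precursors with the growth factor M-CSF. Cells were wild type (WT, Grn+/+) or Grn-/- (GrnKO), Grn being the gene of progranulin, a secreted protein that is also delivered to lysosomes. They were transfected with Cas9 ribonucleoproteins aimed either at Rosa26, a locus used as a neutral control, or together at Mitf, Tfe3 and Tfeb (TKO). These 3 genes encode the MiT/TFE factors, which switch on genes of lysosomes and autophagy. Both genotypes with both edits made 4 groups (WT Rosa26, GrnKO Rosa26, WT TKO, GrnKO TKO) of 4 libraries, 1 of every group in each of 4 batches. All cells shared the C57Bl/6J background with an hTfR mu/hu knock-in, a donor age of 12 weeks and a label of male sex, came from frozen stocks, were kept in 50 ng/mL M-CSF, and gave RNA 10 days after transfection. The protocols give no cloning or selection of edited cells, so a TKO library is a pool of edited and unedited cells in unknown proportion.

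Cells make cholesterol through the mevalonate pathway and then through a series of sterol intermediates in the endoplasmic reticulum. When sterols are low, SCAP escorts the membrane-bound SREBP2 precursor to the Golgi, the site 1 and site 2 proteases release its transcription factor domain, and the genes of sterol synthesis and uptake are switched on. When sterols are high, INSIG proteins hold SCAP in the endoplasmic reticulum. Macrophages also take in cholesterol by engulfing lipoproteins and dead cells and free it in lysosomes, which feeds back on the same circuit.

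Library totals ran from 7069445 counts in WT Rosa26 of batch 1, the shallowest, to 32969401 in GrnKO Rosa26, whose 4 libraries were all deeper than those of WT Rosa26. Levels are given as CPM, a gene's share of the scaled library total. Grn stood at 2869.7 to 3684 CPM in WT Rosa26 and 44.2 to 54.7 CPM in GrnKO Rosa26, a log2 difference of -6.06 ± 0.13. With the TKO edit Tfe3, at 229 to 399 CPM in WT Rosa26 and 218 to 262 CPM in GrnKO Rosa26, fell by 0.90 on the log2 scale in WT (edgeR adjusted p = 0.0108) and by 0.51 in GrnKO (adjusted p = 0.0351). Mitf rose in GrnKO TKO by 0.25 ± 0.09 (adjusted p = 0.049) and was not called in WT TKO, and Tfeb was called in neither. Small edits need not lower a transcript, and 3′ tags do not measure editing. The 8 macrophage markers summed to 8058 to 10359 CPM in control-edited and 9523 to 9819 CPM in TKO-edited WT cells, against 6051 to 6418 CPM in control-edited and 7412 to 8220.1 CPM in TKO-edited GrnKO cells. The highest of the 8, Lyz2, reached 6908 CPM, so the sums rest largely on it. Log2 fold changes of the 8 with Grn loss in control-edited cells ran from -1.46 to 0.95. Markers of the 6 other cell classes looked at, stromal, neutrophil, lymphocyte, mast cell and basophil, dendritic and erythroid, summed to at most 14.6 CPM in any library. Under 1 CPM in every library were 5 of 7 stromal, 6 of 7 neutrophil, 6 of 6 lymphocyte, 5 of 5 mast cell and basophil, 4 of 5 dendritic and 4 of 4 erythroid markers, 1 erythroid marker being at 0 throughout. Against the label of male sex, 10 libraries had the X-inactivation transcript Xist at 169 to 268 CPM and the Y-linked gene Ddx3y at 1.22 CPM or less, 4 libraries (WT of batch 3 and GrnKO of batch 4) held Ddx3y transcripts at 97.2 to 122 CPM, and 2 (WT of batch 2) held both. Of the batches, batch 1 alone had both genotypes alike in these genes, so within-batch values are given below.

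In control-edited cells, loss of Grn raised most of the pathway. Of the 26 genes, 20 rose and none fell in GrnKO Rosa26 against WT Rosa26, at an adjusted p under 0.05 in edgeR's quasi-likelihood test, where 44.6% of all genes tested were called, 23.1% higher and 21.5% lower. DESeq2 gave 20 higher and none lower, and at an unadjusted p under 0.05 edgeR had 20 higher and 0 lower. The median log2 fold change of the 26 was 0.56, against 0.00 over all genes tested. The groups did not overlap for 16 genes, all higher in GrnKO, where 34.5% of all genes lay apart in either direction and 19.6% in that one. The 20 risen genes were higher in GrnKO in each of the 4 batches. They were called from these same libraries, so this is not separate support. Of all 26 genes, 21 had the same sign in all 4 batches, and the share over all genes was not computed. In batch 1 alone the differences of the 20 risen genes ran from 0.25 to 1.22. With Ddx3y as a covariate 20 genes rose. Leaving out batch 4 left 15, and without WT Rosa26 of batch 3 there were 20 higher and 1 lower, Idi1.

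Editing of Mitf, Tfe3 and Tfeb in GrnKO cells lowered most of the pathway. In GrnKO TKO against GrnKO Rosa26, 20 of the 26 genes fell and none rose by the edgeR test, where 32.6% of all genes were called and 17.8% were lower. DESeq2 again gave 20 lower and none higher, and at an unadjusted p under 0.05 edgeR had 0 higher and 20 lower. The median log2 fold change was -0.45, against 0.00 over all genes. The groups did not overlap for 21 genes, all lower after editing, where 31.8% of all genes lay apart in either direction and 18.1% in that one. This comparison and the one above share the 4 GrnKO Rosa26 libraries, so their values are not independent.

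In WT cells the same editing changed little. Only Lbr was called, and it fell, where 3.35% of all genes were called, 2.18% higher and 1.16% lower. DESeq2 called 2 members, Lbr and Msmo1, both lower, and at an unadjusted p under 0.05 edgeR had 1 higher and 5 lower. The median of the 26 was -0.07. The WT groups lay apart for Acat2 and Lbr, both lower after editing, where 5.62% of all genes lay apart, 3.34% higher and 2.27% lower. Summed over the 19 enzymes, levels were 1284 to 1526 CPM in control-edited and 1234 to 1504 CPM in TKO-edited WT cells, against 1986 to 2147 CPM in control-edited and 1392 to 1568 CPM in TKO-edited GrnKO cells. GrnKO Rosa26 lay above every other library, and the other 3 groups overlapped. In bulk RNA a lower level per cell and a smaller share of cells making the transcript cannot be told apart.

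**Figure D1:**
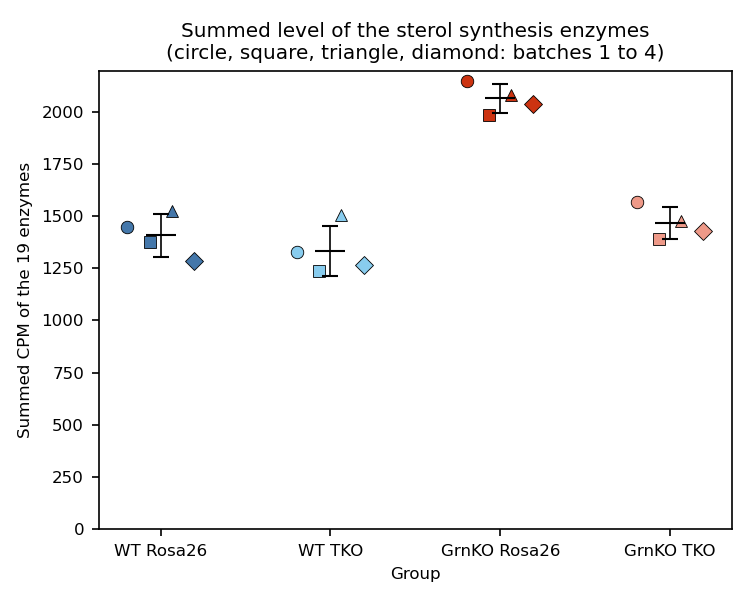
Summed level of the 19 sterol synthesis enzymes (CPM, linear axis from 0) in each of the 16 libraries by group, with the mean and SD of 4 libraries and a marker shape for each batch. The 4 GrnKO Rosa26 libraries, at 1986 to 2147 CPM, lie above all others.

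**Figure D2:**
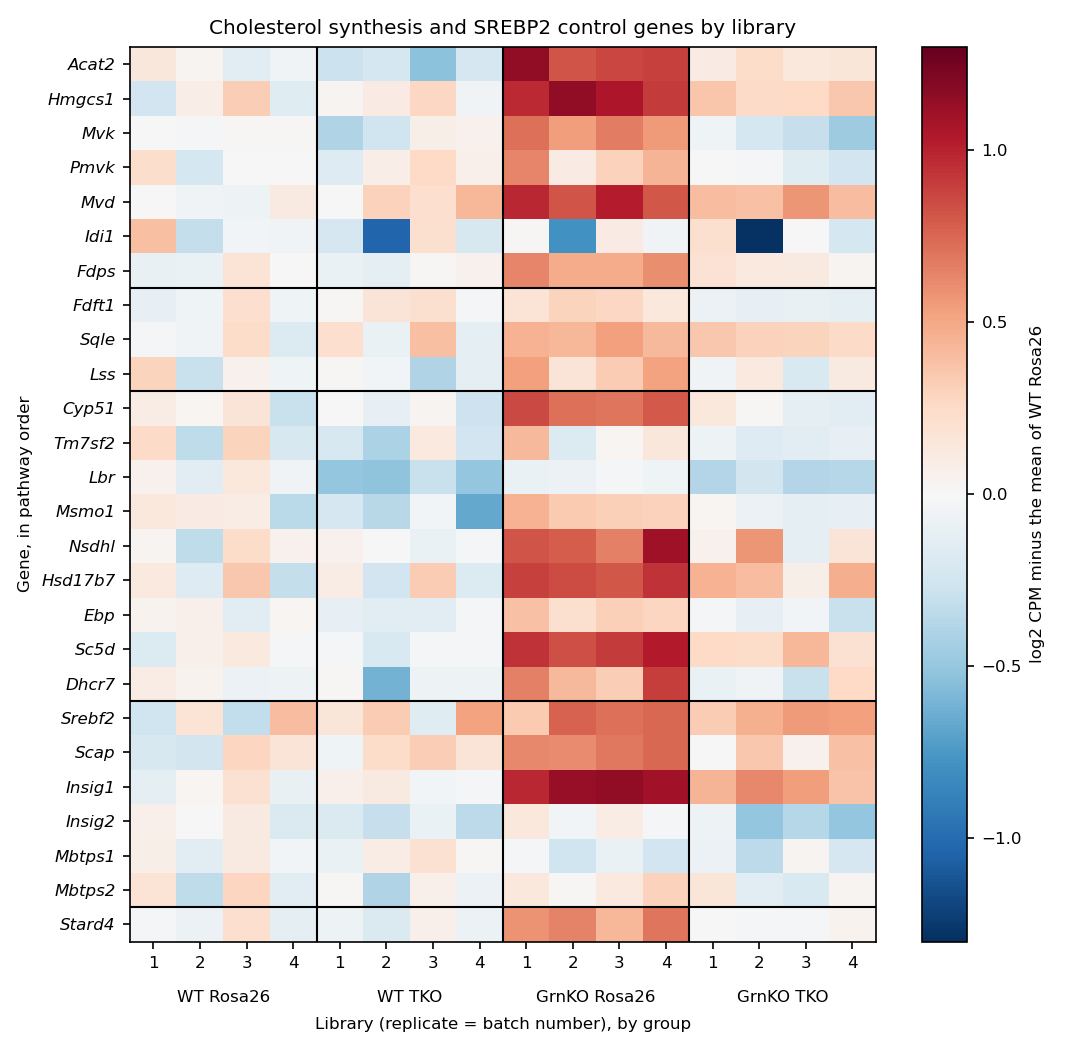
Level of each of the 26 genes in each of the 16 libraries, as log2 CPM minus the mean of the 4 WT Rosa26 libraries; rows follow the pathway and lines part the steps. Red fills most rows of GrnKO Rosa26, while Idi1, Tm7sf2, Lbr, Insig2, Mbtps1 and Mbtps2 stay near white there or vary between libraries.

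Promoter sequence was set beside these changes because most members moved together. RefSeq promoters were found for 22 of the 26 genes, and the 250 bases before each start were searched on both strands. The sterol regulatory element in the form TCACNCCAC was present in 1 of the 22, Hmgcs1, which is 4.55%, against 1.22% of the 27025 genes with a promoter; with 1 mismatch allowed it was in 10 of the 22, 45.5%, against 23.0%. The NF-Y site CCAAT was in 18, 81.8%, against 37.5%, and the GC box GGGCGG in 20, 90.9%, against 35.4%. The E-box CACGTG, a palindrome that MiT/TFE proteins and other factors bind, was in 5, 22.7%, against 6.86%: Hsd17b7, Sc5d, Dhcr7, Scap and Insig1. No match overlapped a match of another motif, and median GC content was 62.6% in the members' promoters against 52.4% in all, for which the shares were not adjusted. The 27025 genes were also not limited to the 15385 tested here, whereas all 26 members were tested, so the shares compare unlike sets. Below are 5 promoters of genes that rose with Grn loss, fell with editing in GrnKO cells and differed between genotypes in their response to editing, and, for contrast, that of Mbtps1, which was not called in any comparison. They are from RefSeq on GRCm38.p6, written 5′ to 3′ toward the start site and cut to stretches free of annotated exons, while the counts were made on GRCm39. Capitals mark exact matches of TCACNCCAC, CACGTG or CCAAT on either strand (a CCAAT on the other strand reads ATTGG).
Hmgcs1, chr13:119690101-119690350, plus strand: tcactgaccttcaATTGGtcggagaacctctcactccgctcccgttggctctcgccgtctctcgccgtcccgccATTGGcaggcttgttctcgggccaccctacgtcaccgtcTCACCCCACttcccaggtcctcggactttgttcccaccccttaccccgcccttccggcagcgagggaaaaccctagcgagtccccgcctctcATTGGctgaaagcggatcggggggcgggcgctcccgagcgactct
Mvk, chr5:114444061-114444268, plus strand: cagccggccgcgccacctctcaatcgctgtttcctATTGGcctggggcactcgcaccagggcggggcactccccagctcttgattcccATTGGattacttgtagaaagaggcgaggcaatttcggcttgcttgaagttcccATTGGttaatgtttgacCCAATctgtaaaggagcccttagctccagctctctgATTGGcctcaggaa
Mvd, chr8:122443423-122443672, minus strand: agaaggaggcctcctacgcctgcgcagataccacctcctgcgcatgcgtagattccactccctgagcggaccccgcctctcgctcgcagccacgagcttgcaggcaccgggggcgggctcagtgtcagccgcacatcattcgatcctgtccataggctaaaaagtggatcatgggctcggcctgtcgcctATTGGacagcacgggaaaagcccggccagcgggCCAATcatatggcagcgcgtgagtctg
Sc5d, chr9:42264301-42264550, minus strand: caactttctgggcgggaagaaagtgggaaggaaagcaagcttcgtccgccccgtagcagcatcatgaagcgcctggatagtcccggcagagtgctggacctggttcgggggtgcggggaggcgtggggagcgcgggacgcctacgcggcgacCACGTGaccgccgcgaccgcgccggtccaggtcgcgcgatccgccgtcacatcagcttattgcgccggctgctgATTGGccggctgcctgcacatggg
Insig1, chr5:28071162-28071362, plus strand: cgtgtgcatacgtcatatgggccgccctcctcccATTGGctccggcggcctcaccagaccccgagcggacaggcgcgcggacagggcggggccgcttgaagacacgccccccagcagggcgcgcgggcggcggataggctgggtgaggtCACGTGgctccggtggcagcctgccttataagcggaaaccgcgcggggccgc
Mbtps1, chr8:119558762-119559011, minus strand: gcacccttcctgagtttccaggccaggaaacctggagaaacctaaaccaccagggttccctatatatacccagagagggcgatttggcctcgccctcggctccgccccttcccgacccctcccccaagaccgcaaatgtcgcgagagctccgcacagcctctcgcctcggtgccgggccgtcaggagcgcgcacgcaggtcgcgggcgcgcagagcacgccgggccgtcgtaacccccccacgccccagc
A match describes letters in this window and is not a measured binding site. Mbtps1 held none of the 3 capitalised motifs in its 250 bases, and Mvk held 5 CCAAT matches, the most of any member. The promoters shown do not stand for all 22. Acat2, which rose with Grn loss, also held none of the 3 capitalised motifs. Idi1, Tm7sf2, Lbr and Insig2, not called with Grn loss, held 2, 1, 2 and 3 CCAAT matches.

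The first 7 enzymes, which lead from acetyl-CoA to farnesyl diphosphate, moved with 1 exception: 6 of the 7 rose with Grn loss, 6 fell with editing in GrnKO cells, and the median log2 fold changes were 0.62 and -0.48. Acat2 condenses acetyl-CoA to acetoacetyl-CoA. Its level in batches 1 to 4 was 16.9, 15.7, 13.9 and 14.8 CPM in WT Rosa26 and 33.9, 27.0, 27.9 and 28.3 CPM in GrnKO Rosa26. After editing it was 12.6, 13.0, 10.6 and 13.1 CPM in WT and 16.5, 18.1, 16.8 and 17.0 CPM in GrnKO. GrnKO Rosa26 was highest in all batches and WT TKO lowest, and of the 4 groups only WT Rosa26 and GrnKO TKO overlapped. The log2 fold change was 0.94 ± 0.10 with Grn loss (edgeR adjusted p = 4.52e-07), -0.77 ± 0.09 with editing in GrnKO cells (adjusted p = 8.36e-06) and -0.31 ± 0.10 with editing in WT cells (adjusted p = 0.106).

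Hmgcs1 makes HMG-CoA from acetoacetyl-CoA and is a standard target of SREBP2; its promoter above holds the exact sterol regulatory element. It stood at 184, 232, 274 and 197 CPM in control-edited WT cells and at 224, 236, 265 and 213 CPM in edited WT cells. In GrnKO cells it stood at 428, 486, 454 and 412 CPM with the Rosa26 edit and 281, 260.0, 262 and 280.0 CPM with the TKO edit. The GrnKO Rosa26 libraries were all above 400 CPM and apart from the other 12, and the GrnKO TKO libraries overlapped both WT groups. Grn loss changed it by 1.01 ± 0.09 on the log2 scale, a 2.01-fold rise (edgeR adjusted p = 8.65e-08). Editing changed it by -0.71 ± 0.09 in GrnKO cells (adjusted p = 1.32e-05) and by 0.08 ± 0.09 in WT cells (adjusted p = 0.702).

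Mevalonate kinase (Mvk) showed the deepest fall on editing among the 26. Its level was 20.0, 19.8, 20.2 and 20.3 CPM in WT Rosa26, 32.8, 29.2, 31.8 and 29.4 in GrnKO Rosa26, and after editing of GrnKO cells it was 19.3, 17.1, 16.3 and 14.6. All 4 edited GrnKO libraries lay below all 4 WT Rosa26 libraries, although that difference, -0.26 ± 0.11, had an adjusted p of 0.147 in edgeR. WT TKO, at 15.3, 16.7, 21.2 and 20.8 CPM, overlapped WT Rosa26. With Grn loss the log2 fold change was 0.62 ± 0.11 (adjusted p = 0.000187), and with editing in GrnKO cells it was -0.87 ± 0.11 (adjusted p = 1.25e-05).

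Phosphomevalonate kinase (Pmvk) and mevalonate diphosphate decarboxylase (Mvd), which complete isopentenyl diphosphate, both rose with Grn loss, by 0.38 ± 0.11 and 0.91 ± 0.09, and both fell with editing in GrnKO cells, by 0.48 and 0.47 on the log2 scale. For Pmvk the WT Rosa26 range of 31.4 to 43.0 CPM overlapped the GrnKO Rosa26 range of 39.5 to 57.1 CPM, and without GrnKO Rosa26 of batch 1 it lost the call, at 0.30 (adjusted p = 0.0577). Without batch 4 Pmvk lost both calls, at 0.33 (adjusted p = 0.0867) and -0.39 (adjusted p = 0.0672). Mvd was at 70.6, 68.3, 67.5 and 76.6 CPM in WT Rosa26, 139, 125, 143 and 124 in GrnKO Rosa26, and after editing of GrnKO cells it was 93.6, 92.1, 105 and 93.3, so the 3 groups lay apart, with edited GrnKO between the others. Mvd in WT TKO, at 71.2 to 95.2 CPM, overlapped edited GrnKO. Farnesyl diphosphate synthase (Fdps), at the branch to prenylated proteins and ubiquinone, was at 81.4, 82.0, 99.0 and 87.6 CPM in WT Rosa26 and 136, 121, 122 and 132 in GrnKO Rosa26, which lay apart (0.55 ± 0.08, edgeR adjusted p = 1.57e-05). On editing it fell in GrnKO cells to between 89.3 and 99.1 CPM (-0.43 ± 0.08, adjusted p = 0.00033). In the Fdps transcript that shared most, out of 5 compared, all 31-base words of the last 200 bases are shared with the overlapping gene Gm43738. Gm43738 averaged 6.51 CPM and moved the same way, so the split of reads between it and Fdps is uncertain.

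Idi1, the isomerase of isopentenyl diphosphate, was the exception among these enzymes. It stood at 199.6, 123, 148 and 148 CPM in control-edited and 131, 74.4, 177 and 131 CPM in TKO-edited WT cells, against 154, 88.1, 164 and 147 CPM in control-edited and 176, 62.5, 152 and 129.8 CPM in TKO-edited GrnKO cells. Batch 2 was lowest in every group, and all groups overlapped. Its log2 fold change was -0.20 ± 0.14 with Grn loss (edgeR adjusted p = 0.281) and -0.13 ± 0.14 with editing in GrnKO cells (adjusted p = 0.501). Without WT Rosa26 of batch 3 it was called lower with Grn loss. In the Idi1 transcript that shared most, out of 4 compared, the last 200 bases share all their 31-base words with Gm13502. The counts of Idi1 are therefore uncertain too.

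Of the 3 enzymes that lead to the sterol ring system, Fdft1, which makes squalene, Sqle, which oxidises it, and Lss, which cyclises it to lanosterol, all 3 rose with Grn loss, with a median of 0.39, and Fdft1 and Lss fell with editing in GrnKO cells. Sqle was at 98.2, 95.7, 117 and 87.6 CPM in WT Rosa26, 136, 134, 143 and 132 in GrnKO Rosa26, and after editing of GrnKO cells it was 127, 122, 121 and 118. Edited GrnKO libraries stayed above all WT Rosa26 libraries, the nearest at 118 against 117 CPM, and below all GrnKO Rosa26 libraries. Sqle in WT TKO, at 90.6 to 129.5 CPM, spanned the edited GrnKO range. Its rise was 0.46 ± 0.08 (edgeR adjusted p = 0.000195) and its change on editing in GrnKO cells was -0.16 ± 0.08 (adjusted p = 0.142), which missed the threshold. With only the groups compared in the fit, 23 members fell on editing in GrnKO cells, Sqle, Tm7sf2 and Srebf2 being added.

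Lss rose by 0.39 ± 0.13 (edgeR adjusted p = 0.0165), with overlapping ranges of 8.88 to 13.2 and 12.1 to 15.7 CPM, and fell on editing in GrnKO cells by 0.38 on the log2 scale (adjusted p = 0.0221). Both calls were lost without batch 4 and without GrnKO Rosa26 of batch 4, in the latter at 0.35 (adjusted p = 0.0592) and -0.34 (adjusted p = 0.0804). The call with Grn loss was also lost without WT Rosa26 of batch 2 or 4, and the call with editing without either GrnKO library of batch 1 or of batch 3 and without those batches. Fdft1 changed by 0.21 ± 0.08 with Grn loss (adjusted p = 0.0391) and -0.32 ± 0.08 with editing in GrnKO cells (adjusted p = 0.0053). Its rise lost the call in 16 of 30 alternatives, among them those without WT Rosa26 of batch 1, 2 or 4, without any GrnKO Rosa26 library, or without GrnKO TKO of batch 4, where it lay between 0.18 and 0.23. An exon of Fdft1 overlaps the cathepsin B gene Ctsb on the opposite strand. Ctsb averaged 2852 CPM, against ranges of 32.2 to 40.5 and 38.3 to 42.5 CPM for Fdft1, and itself changed by 0.24 and -0.23 in the same comparisons, both called. Use of strand in the counting is not given in the sources used here, so reads of the pair cannot be told apart.

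From lanosterol to cholesterol, 7 of 9 enzymes rose with Grn loss and 8 of 9 fell with editing in GrnKO cells, with medians of 0.58 and -0.50. Cyp51, the lanosterol demethylase, was at 129, 123, 135 and 98.5 CPM in WT Rosa26 and 120.4, 112, 124 and 99.7 in edited WT cells. In GrnKO cells it was at 218, 197, 195 and 209 CPM before and 132, 122, 110.2 and 109.6 CPM after editing. Only GrnKO Rosa26 stood apart, and edited GrnKO lay within the range of WT Rosa26 at 98.5 to 135 CPM. The rise was 0.76 ± 0.08 (edgeR adjusted p = 8.91e-07) and the fall -0.79 ± 0.08 (adjusted p = 1.71e-06).

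Sc5d is the lathosterol oxidase, and Dhcr7 performs the last reduction to cholesterol in the Kandutsch-Russell branch. Both have a match of the CACGTG E-box. For Dhcr7 it is in only 1 of its promoters, whose searched bases all lie in annotated exons. Mvk, Cyp51, Acat2 and Hmgcs1, with the deepest falls on editing in GrnKO cells, have no such match in the bases searched. These genes were picked by their values, and a part of the E-box in the changes was not tested. Sc5d was at 69.1, 82.0, 85.5 and 76.6 CPM in WT Rosa26, 149.96, 139.7, 147 and 159 in GrnKO Rosa26, and after editing of GrnKO cells it was 93.6, 92.1, 105 and 89.3. These 3 groups did not overlap, and edited GrnKO lay between the others. Sc5d rose by 0.92 ± 0.08 (edgeR adjusted p = 4.85e-08) and on editing in GrnKO cells changed by -0.65 ± 0.08 (adjusted p = 7.36e-06). Dhcr7 was at 4.50 to 5.07 CPM in WT Rosa26, 5.93 to 8.83 in GrnKO Rosa26, and after editing of GrnKO cells it was 3.88 to 5.68. Its rise of 0.58 ± 0.16 (adjusted p = 0.00546) lost the call without batch 4, at 0.42 (adjusted p = 0.101).

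The enzymes that remove the methyl groups at carbon 4, Msmo1, Nsdhl and Hsd17b7, rose by 0.35 ± 0.09, 0.82 ± 0.16 and 0.86 ± 0.14 and fell on editing in GrnKO cells by 0.42, 0.65 and 0.50 on the log2 scale, all 6 changes called. Without batch 4 the rise of Msmo1 and the fall of Nsdhl lost the call, at 0.23 (adjusted p = 0.0747) and -0.53 (adjusted p = 0.0554). Hsd17b7 was at 18.4, 15.0, 21.6 and 13.7 CPM in WT Rosa26 and 31.4, 30.4, 29.7 and 32.4 in GrnKO Rosa26, and the groups lay apart. Nsdhl, at 5.47 to 8.10 and 10.8 to 14.7 CPM, is X-linked, as are Ebp and Mbtps2, and Xist and Ddx3y differ between libraries here. In batch 1, where they did not, Nsdhl rose by 0.78 and Ebp by 0.33. Ebp, the sterol isomerase, rose by 0.29 ± 0.08 over all batches (edgeR adjusted p = 0.00424) and fell by 0.40 on the log2 scale with editing in GrnKO cells (adjusted p = 0.000584). Its rise lost the call with counts thinned to the depth of the shallowest library (edgeR adjusted p = 0.0527).

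Tm7sf2 and Lbr encode the sterol C14 reductases, which follow Cyp51, and neither rose with Grn loss. Lbr, which is also the lamin B receptor of the inner nuclear membrane, was at 30.7, 26.6, 32.4 and 28.5 CPM in WT Rosa26 and 27.9, 27.9, 29.0 and 28.3 in GrnKO Rosa26. It was at 20.8, 20.5, 24.1 and 20.8 CPM in WT TKO and 22.6, 25.0, 22.6 and 22.7 CPM in GrnKO TKO. Both edited groups lay below both control-edited groups with no overlap. Editing lowered it by 0.45 on the log2 scale in WT cells (edgeR adjusted p = 0.00629) and by 0.28 in GrnKO cells (adjusted p = 0.0175), and the difference between these effects missed the threshold (0.17 ± 0.12, adjusted p = 0.366). The call in WT cells was lost without batch 1 or batch 4, at -0.42 (adjusted p = 0.0647) and -0.46 (adjusted p = 0.0586), and the call in GrnKO cells without GrnKO Rosa26 of batch 2 or 4 or GrnKO TKO of batch 3 or 4, where it lay between -0.27 and -0.24, and without batch 1, 3 or 4. Tm7sf2, at 38.3 to 58.5 CPM in WT Rosa26, overlapped in all groups and changed by 0.11 ± 0.11 and -0.22 ± 0.11, neither called. Without GrnKO TKO of batch 2 or GrnKO Rosa26 of batch 3, and with no filter on low counts, Tm7sf2 was called lower with editing in GrnKO cells.

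**Figure D3:**
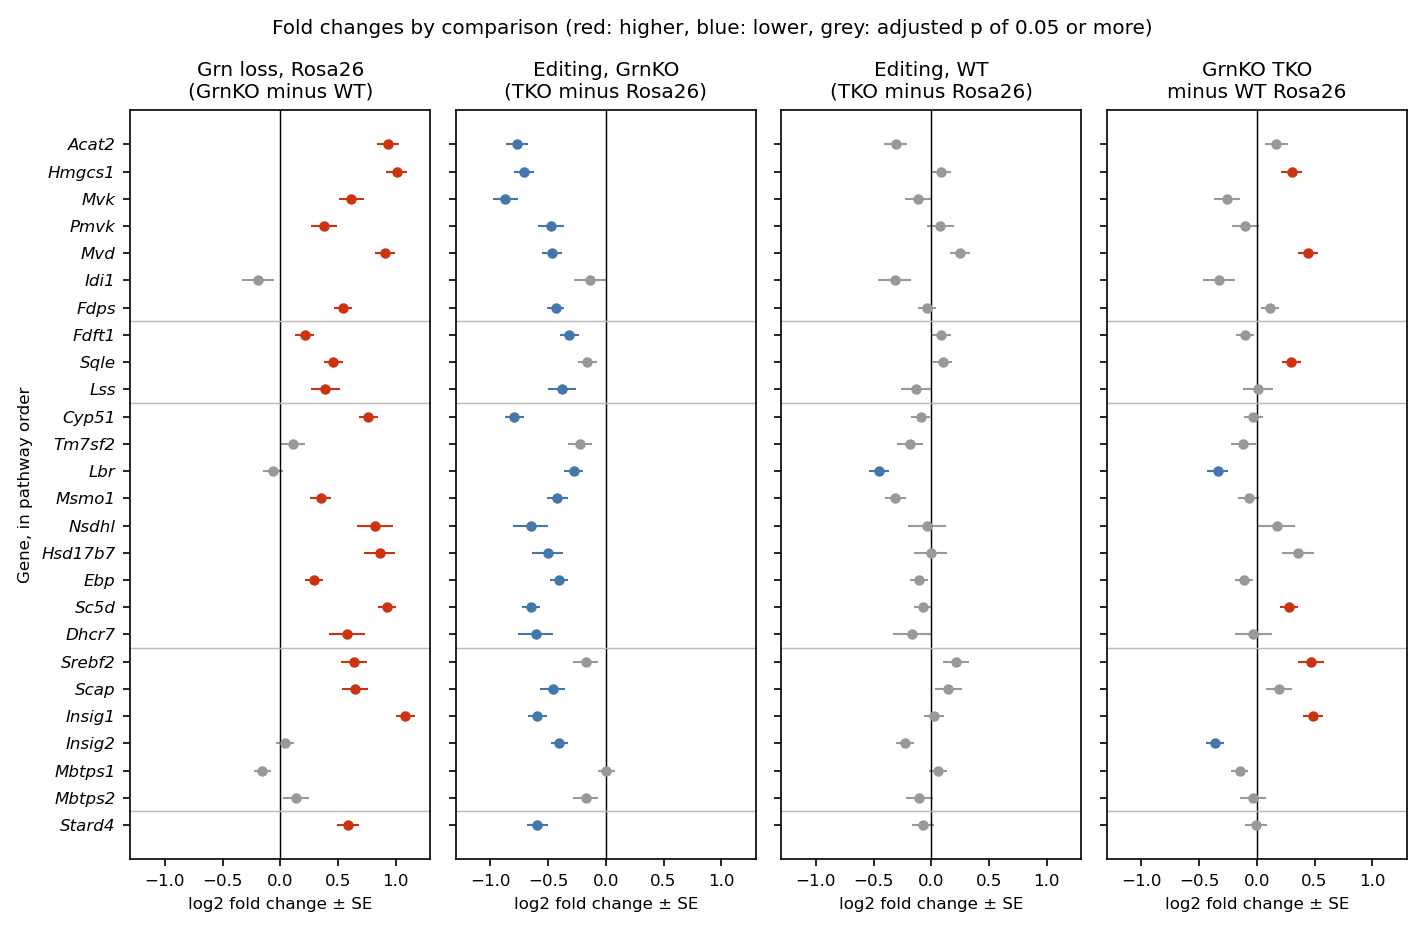
Log2 fold change ± SE (edgeR) of the 26 genes in pathway order for 4 comparisons, each with 4 libraries a group. Points right of 0 in the first panel and left of 0 in the second show the rise with Grn loss, up to 1.08 for Insig1, and the fall with editing in GrnKO cells, down to -0.87 for Mvk; most points of the third panel lie near 0.

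Of the 6 genes of SREBP2 and its control, 3 rose with Grn loss. Srebf2, which encodes SREBP2, was at 66.0, 88.8, 63.0 and 104 CPM in WT Rosa26 and 100.0, 134, 129 and 132 in GrnKO Rosa26, with batch 1 of GrnKO low and inside the WT range. After editing it was at 87.6, 99.2, 70.6 and 113 CPM in WT and 99.1, 109, 115 and 114 CPM in GrnKO. The rise was 0.64 ± 0.11 (edgeR adjusted p = 0.000153), and the change on editing in GrnKO cells was -0.17 ± 0.11 (adjusted p = 0.239), which missed the threshold.

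Insig1, the sterol-responsive INSIG gene, showed the largest rise with Grn loss among the 26. It was at 21.5, 23.9, 27.0 and 21.9 CPM in control-edited and 24.6, 25.4, 23.0 and 23.1 CPM in TKO-edited WT cells, against 46.4, 51.6, 52.3 and 50.1 CPM in control-edited and 31.9, 36.2, 34.1 and 30.4 CPM in TKO-edited GrnKO cells. The 2 WT groups overlapped, every GrnKO library lay above them, and the edited GrnKO libraries lay between. The rise was 1.08 ± 0.09, or 2.12-fold (edgeR adjusted p = 1.99e-08), and the fall on editing in GrnKO cells was -0.60 ± 0.08 (adjusted p = 3.46e-05).

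Insig2, the other INSIG gene, was not called with Grn loss. It was at 78.3, 75.2, 81.0 and 65.7 CPM in WT Rosa26 and 82.1, 72.9, 80.3 and 73.6 in GrnKO Rosa26, which overlapped, a change of 0.04 ± 0.08 (edgeR adjusted p = 0.693). In GrnKO TKO it was at 71.6, 52.7, 57.7 and 52.7 CPM, below GrnKO Rosa26 in every library, a fall of 0.40 on the log2 scale (adjusted p = 0.000634). In WT cells editing changed it by -0.23 ± 0.08 (adjusted p = 0.118), lower in 4 of 4 batches, and the interaction of -0.17 ± 0.11 was not called (adjusted p = 0.304).

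Scap, the escort of SREBP2, was at 11.8, 11.6, 16.6 and 15.3 CPM in WT Rosa26, 21.1, 20.96, 21.98 and 23.0 in GrnKO Rosa26, and after editing of GrnKO cells it was 13.8, 17.4, 14.2 and 17.9. GrnKO Rosa26 lay above all other libraries, and edited GrnKO overlapped WT. It rose by 0.65 ± 0.11 (edgeR adjusted p = 0.000132) and fell by 0.46 on the log2 scale with editing in GrnKO cells (adjusted p = 0.00336). Neither protease was called with Grn loss or with editing in GrnKO cells. Mbtps1, the site 1 protease, changed by -0.16 ± 0.08 and 0.01 ± 0.08, and Mbtps2, the site 2 protease, by 0.14 ± 0.11 and -0.17 ± 0.11. Mbtps1 was at 157 to 189 CPM in WT Rosa26 and 146 to 171 in GrnKO Rosa26. With only genes of a mean of 5 CPM or more tested, Mbtps1 was called lower with Grn loss.

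Stard4, a cytosolic carrier that moves sterol between membranes, also rose with Grn loss and fell with editing in GrnKO cells. It was at 30.7, 29.4, 36.0 and 28.5 CPM in WT Rosa26, 46.4, 48.6, 41.9 and 50.1 in GrnKO Rosa26, and after editing of GrnKO cells it was 30.8, 30.6, 30.4 and 32.1. GrnKO Rosa26 lay above all other libraries, and edited GrnKO lay within the WT range. The changes were 0.59 ± 0.09 and -0.59 ± 0.09 (edgeR adjusted p = 5.36e-05 and 0.000103).

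**Figure D4:**
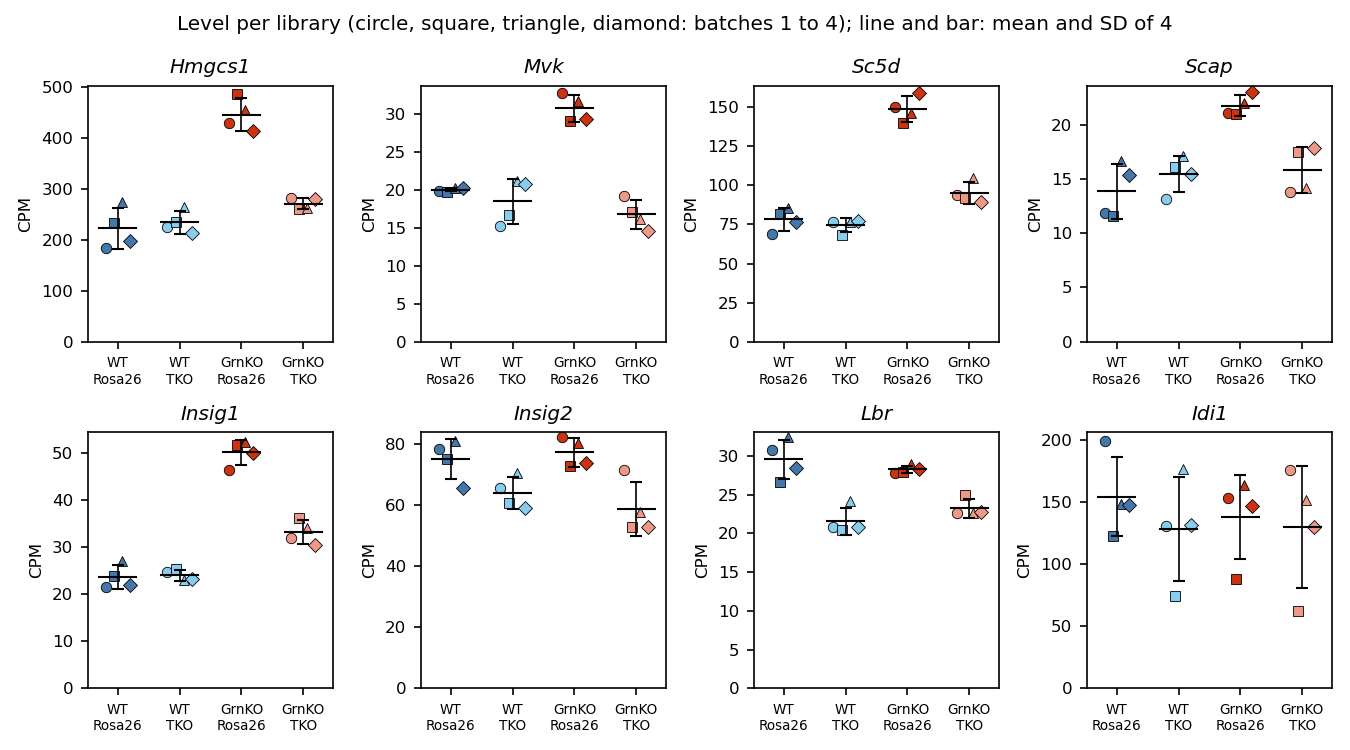
Level (CPM, linear axes from 0) of 8 members in the 16 libraries, with the mean and SD of 4 libraries a group and a marker shape for each batch. Hmgcs1, Mvk, Sc5d, Scap and Insig1 are highest in GrnKO Rosa26, and Idi1 is lowest in batch 2 of every group. Insig2 and Lbr are lower after editing in GrnKO cells, and their means are also lower after editing in WT cells.

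Whether editing acted differently in the genotypes was tested directly. The interaction, editing in GrnKO cells minus editing in WT cells, was negative and called for 12 of the 26 genes and positive and called for none, where 13.4% of all genes were called, 5.80% positive and 7.63% negative. DESeq2 likewise had 12 and none, and at an unadjusted p under 0.05 edgeR had 0 positive and 17 negative. The median was -0.42, against -0.01 over all genes. By step, the called genes were 6 of the first 7 enzymes, 1 of 3 at squalene and lanosterol, 2 of 9 from lanosterol on, 2 of 6 SREBP2 control genes, and Stard4. The largest were Hmgcs1 at -0.79 ± 0.13 (edgeR adjusted p = 0.000787), Mvk at -0.76 ± 0.16 (adjusted p = 0.00488), Mvd at -0.71 ± 0.12 (adjusted p = 0.0014) and Cyp51 at -0.70 ± 0.12 (adjusted p = 0.000964). All 12 were negative in each of the 4 batches, whose libraries also gave the calls, so this is not separate support. Of all 26 genes, 19 had the same sign in all 4 batches. The count of 12 fell to 7, 6 and 3 when batch 1, 2 or 4 was left out, and was 8 without the batch term or without WT Rosa26 of batch 4. Hmgcs1, Mvd and Cyp51 kept the call in all 29 alternatives that could be run, Mvk, Sc5d and Insig1 lost it only without batch 4, and Scap and Stard4 lost it in 5 and 4, Stard4 also without GrnKO Rosa26 of batch 2. Acat2, Pmvk, Fdps and Fdft1 lost it in 13, 15, 10 and 10, which include the loss of single libraries of every group.

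**Figure D5:**
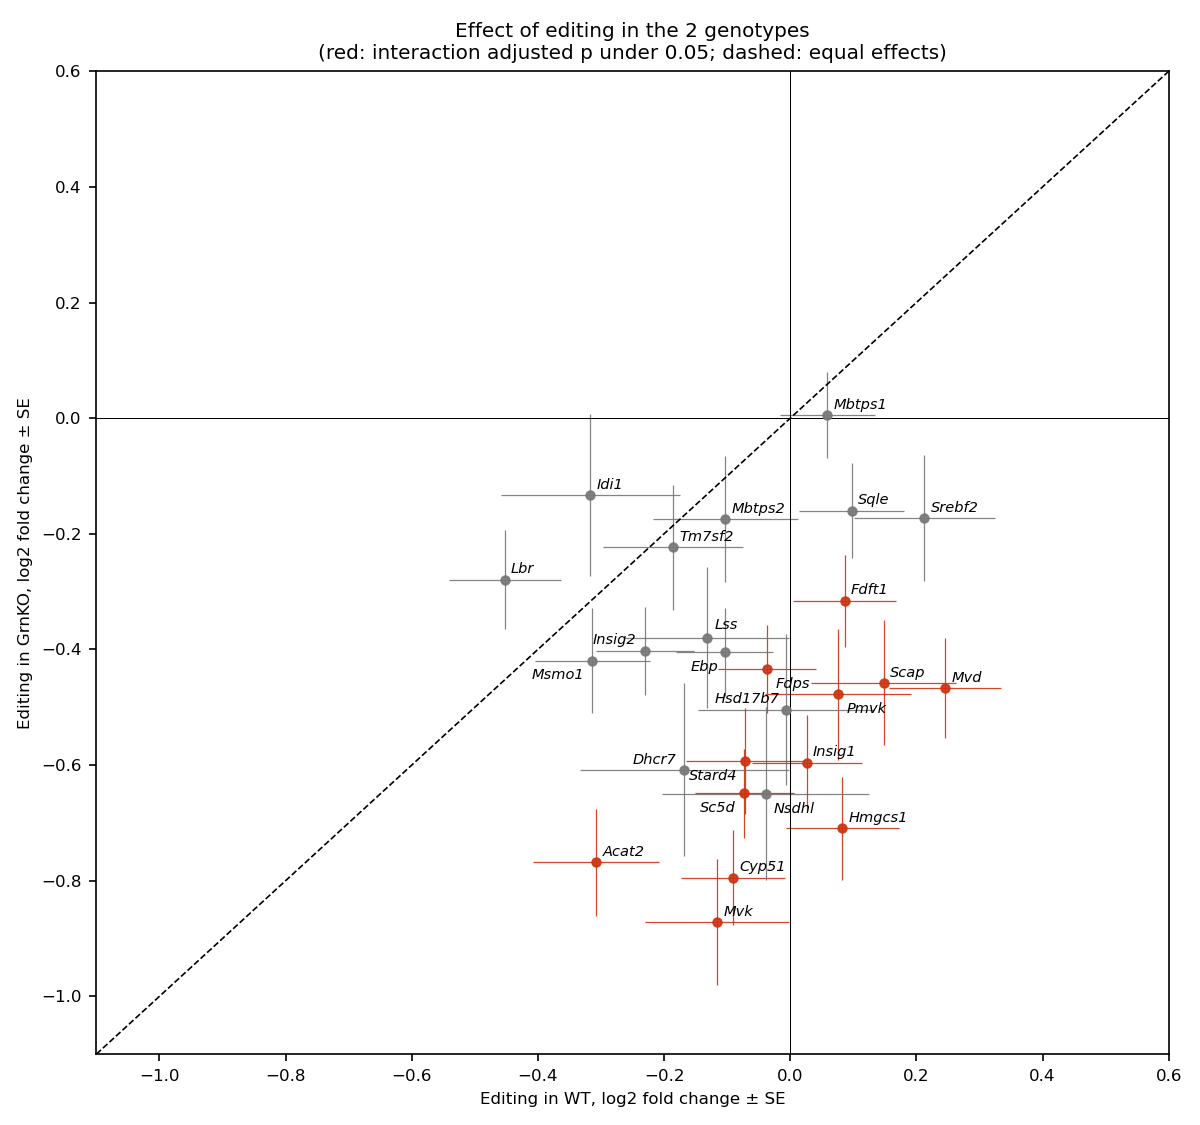
Log2 fold change ± SE (edgeR) on editing in WT cells (horizontal) against that in GrnKO cells (vertical) for the 26 genes, 4 libraries a group, with a dashed line of equal effects and red for a called interaction. The 12 red points lie below the line, between -0.32 for Fdft1 and -0.87 for Mvk on the vertical axis; Lbr and Idi1 lie above it.

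Edited GrnKO cells were then set against control-edited WT cells, to see which members differed. Of the 26, 6 were higher and 2 lower, where 12.7% of all genes were called, 6.43% higher and 6.25% lower, and the median of the 26 was -0.02. The higher genes were Insig1 at 0.49 ± 0.09 (edgeR adjusted p = 0.00132), Srebf2 at 0.47 ± 0.11 (adjusted p = 0.0109), Mvd at 0.44 ± 0.09 (adjusted p = 0.00309), and Hmgcs1, Sqle and Sc5d at 0.30, 0.30 and 0.27. The lower genes were Insig2 at -0.36 ± 0.08 (adjusted p = 0.00488) and Lbr at -0.34 ± 0.09 (adjusted p = 0.0162). Neither had been called with Grn loss in control-edited cells, where they changed by 0.04 and -0.06. The groups lay apart for 4 higher genes, Mvd, Sqle, Sc5d and Insig1, and for 2 lower ones, Mvk and Lbr, where 9.55% of all genes lay apart, 5.67% higher and 3.87% lower. This count of 8 was 4 without the batch term and 2 when only these 2 groups were fitted. It was 5 without WT Rosa26 of batch 1, GrnKO TKO of batch 1 or WT Rosa26 of batch 4, and 3, 3 and 4 without batch 1, 2 or 4. Hmgcs1, Sqle and Sc5d lost their calls most often, in 10, 11 and 10 of 30 alternatives. Lbr lost it in 6, among them that without GrnKO TKO of batch 3, and Srebf2 and Insig2 lost it in 4 and 2, none of which leaves out a single library. Insig1 and Mvd kept it in all 30.

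Among edited cells, GrnKO and WT differed for 3 of the 26 genes, all higher in GrnKO, where 4.99% of all genes were called, 2.53% higher and 2.45% lower. Acat2 was higher by 0.48 ± 0.10 (edgeR adjusted p = 0.00708), Insig1 by 0.46 ± 0.08 (adjusted p = 0.0034) and Sc5d by 0.35 ± 0.08 (adjusted p = 0.0134), and for these 3 the groups did not overlap. Fdft1 also lay apart, lower in GrnKO, but was not called (-0.19 ± 0.08, adjusted p = 0.194); 8.41% of all genes lay apart in this comparison, 4.61% higher and 3.80% lower. Without batch 2 no member was called by edgeR, with 5 higher and 0 lower at an unadjusted p under 0.05, and without batches 4 and 3 the counts were 1 and 5. Sc5d also lost its call without WT TKO of batch 2 or 3 or GrnKO TKO of batch 3, at 0.31 (adjusted p = 0.0793), 0.33 (adjusted p = 0.0633) and 0.31 (adjusted p = 0.0514).

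Genes around the pathway were read from 7 further lists, whose counts stand against 44.6% of all genes called with Grn loss (23.1% higher) and 32.6% with editing in GrnKO cells (17.8% lower). Of 6 other SREBP2 targets, 5 rose with Grn loss and 5 fell with editing in GrnKO cells. A negative interaction was called for 4 of them, where 7.63% of all genes had one. Tmem97, a sterol-binding protein of the endoplasmic reticulum, was at 25.7 ± 1.80 CPM in WT Rosa26, 48.5 ± 1.51 in GrnKO Rosa26, and after editing of GrnKO cells it was 31.5 ± 3.26 (SD, n = 4), and changed by 0.92 ± 0.09 and -0.62 ± 0.09. The fatty acid carrier Fabp5 changed by 1.60 ± 0.16 and -1.24 ± 0.16. Of 10 other proteins of SREBP control, 4 rose and 1 fell with Grn loss, and 3 fell and none rose with editing in GrnKO cells. Only when counted in either direction were these shares close to those over all genes, 44.6% and 32.6%. Medians of the 10 were 0.14 and -0.05. Rnf145, a ubiquitin ligase that acts on SCAP, went from 32.9 ± 9.11 CPM in WT Rosa26 to 80.2 ± 3.58 in GrnKO Rosa26, and after editing of GrnKO cells it was 44.9 ± 5.77, with changes of 1.29 ± 0.11 and -0.85 ± 0.10 and an interaction of -0.96 ± 0.15. Erlin2 changed by 0.47 ± 0.09 and -0.46 ± 0.09.

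The SREBP1 and fatty acid list moved in the same direction, with 7 of 12 higher with Grn loss and 6 lower with editing in GrnKO cells. Acaca, which makes malonyl-CoA, changed by 0.69 ± 0.09 and -0.73 ± 0.09, the desaturase Fads2 by 0.63 ± 0.11 and -0.85 ± 0.11, and Acsl3 by 0.43 ± 0.07 and -0.44 ± 0.07. In the isoprenoid branch 6 of 12 rose and 3 fell with Grn loss. With editing in GrnKO cells 4 fell and none rose, where 32.6% of all genes were called in either direction and 17.8% were lower. Medians of the 12 were 0.12 and -0.15, and Pdss2 of ubiquinone synthesis was at 0.81 ± 0.14 and -0.66 ± 0.14. Among 10 genes of acetyl-CoA supply and electron transfer 4 rose and 2 fell, and 5 fell with editing, with Erg28, a scaffold of the C4 demethylation enzymes, at 0.70 ± 0.10 and -0.45 ± 0.09.

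Sterol handling genes outside synthesis changed in both directions. Of 13 for transport and esterification, 7 rose and 3 fell with Grn loss, and 3 rose and 4 fell with editing in GrnKO cells. The lysosomal lipase Lipa changed by 0.52 ± 0.06 and -0.43 ± 0.06 and also fell with editing in WT cells (-0.26 ± 0.06), the carrier Stard5 by 1.22 ± 0.15 and -0.80 ± 0.14, and Gramd1a fell with Grn loss by 0.86 on the log2 scale. Ch25h, the cholesterol 25-hydroxylase, rose with editing in WT cells by 1.43 ± 0.38 and in GrnKO cells by 1.73 ± 0.42, at levels of 0.460 ± 0.136 CPM in WT Rosa26 and 1.33 ± 0.152 in edited WT cells (SD, n = 4). Of 6 targets of the sterol-sensing receptors LXR, 4 rose with Grn loss, and 1 rose and 2 fell with editing in GrnKO cells. Abcg1, the sterol exporter, changed by 1.40 ± 0.13 and -0.88 ± 0.12 with an interaction of -0.73 ± 0.18. With editing in WT cells these 7 lists held 3 called genes in all, Elovl6, Lipa and Ch25h, where 3.35% of all genes were called.

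Cell cycle genes and macrophage markers were read beside the members. The 15 cell cycle genes summed to 380.2 to 504 CPM in control-edited and 254 to 343 CPM in TKO-edited WT cells, against 398 to 463 CPM in control-edited and 334 to 399 CPM in TKO-edited GrnKO cells. Of them 5 rose and 1 fell with Grn loss, a share near the 44.6% of all genes called in either direction. With editing 6 fell and none rose in GrnKO cells, where 17.8% of all genes were lower. In WT cells 2 fell and none rose with editing, where 1.16% of all genes were lower. The median log2 fold change of the 15 was -0.38 with editing in GrnKO cells and -0.41 in WT cells, with 13 negative in each. The macrophage markers, 8 genes, had 1 higher and 4 lower with Grn loss and 4 higher and 1 lower with editing in GrnKO cells, where 21.5% of all genes were lower and 14.8% higher, respectively. The part of cell cycle and of macrophage markers in the members' changes was not tested. With all libraries thinned to the depth of the shallowest, 16 of the 26 rose with Grn loss and 17 fell with editing in GrnKO cells by edgeR. The calls lost were those of Pmvk, Fdft1, Lss and Ebp with Grn loss and of Lss, Lbr and Dhcr7 with editing.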

How the data were processed

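RNA of 16 macrophage libraries, 4 per group, was read as QuantSeq 3′ mRNA-Seq with unique molecular identifiers, so counts are tags near transcript 3′ ends and do not scale with transcript length. The submitters' processing notes name the aligner STAR (2.7.9a), the quantifier Salmon (1.10.1), R (4.5.1) with edgeR (4.6.2), and genome GRCm39. How identifiers and strand were handled in the counting is not stated there or in the labels. The authors deposited an estimated count per gene and library, written with 2 significant digits, which shifts a member's count by at most 0.07 on the log2 scale. Before rounding, 11.0% of non-zero values were not integers, and all were rounded to whole numbers here. The authors also deposited a signal table of CPM values (counts over the effective library size), and the library size (a score here) and scaling ratio of each library. Repeated symbols (148) were kept as separate rows by gene ID.

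Counts were fitted with edgeR 4.0.16 in R 4.3.3 (TMM scaling, filterByExpr by group, quasi-likelihood test with robust dispersion) over all 16 libraries with a batch term, and p-values were adjusted (Benjamini-Hochberg) over the 15385 genes tested; the biological coefficient of variation was 12.0%. SE is the log2 fold change over the root of F, and a member is called at an adjusted p under 0.05. The interaction is the editing effect in GrnKO minus that in WT. The batch labels pair the libraries. Deviations from group means correlated within a batch at 0.351 on average between edits of WT cells and 0.363 between edits of GrnKO cells, and at 0.0506, 0.106 and 0.104 in the 3 pairings of groups across genotypes. The design text names 16 animals, and whether same-batch libraries share an animal is not given. In every batch the 2 edits of a genotype were alike in Xist and Ddx3y. In WT of batch 2, for example, Ddx3y was at 34.2 CPM with the Rosa26 edit and 31.6 CPM with the TKO edit. The batch term was common to both genotypes, so the fit did not model this closer pairing within a genotype. The p-values measure the spread between these libraries. No 2 libraries were identical. The alternatives used RLE scaling, other filters, DESeq2 1.42.0, limma-trend (limma 3.58.1) on the deposited values plus 0.5 or 2, no batch term, only the groups compared, thinned counts, and each library or batch left out; Ddx3y as a covariate was added after seeing the data.

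The members and lists were chosen with earlier results of these data known. Of each further list, up to 3 called genes with the smallest p in a comparison could be named. Members were all described, and the few singled out by library were chosen after their values were seen.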

Additional observations from a re-analysis of the deposited data

Results flagged for a closer look

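Single libraries that stood apart from the other 3 of their group by Dixon's criterion were found for 8 of the 104 groups of 4 values (26 genes by 4 groups), and chance flags about 1 in 20. Mvd in GrnKO TKO of batch 3 was at 105 CPM (104.98), where the others were at 92.1 to 93.6. Fdft1 in WT Rosa26 of batch 3 was at 40.5 CPM against 32.2 to 33.5, and Lbr in WT TKO of batch 3 was at 24.1 CPM against 20.5 to 20.8. Lbr in GrnKO TKO of batch 2 was at 25.0 CPM against 22.6 to 22.7. Below their groups were Msmo1 in WT Rosa26 of batch 4, at 175 CPM (175.2) against 238 to 246, Sc5d in WT TKO of batch 2, at 68.2 CPM against 76.5 to 77.1, Dhcr7 in WT TKO of batch 2, at 3.10 CPM against 4.53 to 4.82, and Srebf2 in GrnKO Rosa26 of batch 1, at 99.97 CPM against 129 to 134.

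The effect of editing differed between genotypes by the interaction test for 12 genes, with log2 differences (GrnKO minus WT) of -0.46 for Acat2, -0.79 for Hmgcs1, -0.76 for Mvk, -0.55 for Pmvk, -0.71 for Mvd, -0.40 for Fdps and -0.40 for Fdft1. They were -0.70 for Cyp51, -0.58 for Sc5d, -0.61 for Scap, -0.62 for Insig1 and -0.52 for Stard4.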

How the results depend on the processing

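No called log2 fold change of a member reversed under any alternative run: of 1908 recomputed values, 1747 kept their call and 161 lost it. The counts of members called with Grn loss (20) and with editing in GrnKO cells (20) stayed within 1.5 times. They ranged over 18 to 21 (the 21 with Idi1 lower, without WT Rosa26 of batch 3) and 18 to 21 when 1 library was left out, and 15 to 20 and 16 to 20 when 1 batch was, and with only the groups compared were 19 and 23. Editing in WT cells gave 1 call, but 2 with DESeq2, with only its groups fitted or with Ddx3y as a covariate, 1 to 2 without 1 library and 0 to 2 without 1 batch. Grn loss in TKO cells gave 3, but 5 with Ddx3y, 2 to 4 without 1 library and 0 to 5 without 1 batch. Edited GrnKO against control WT gave 8, but 4 with no replicate block (no batch term) and 2 with only its groups, 5 to 10 without 1 library and 3 to 9 without 1 batch. The interaction gave 12, 8 with no replicate block, 8 to 14 without 1 library and 3 to 13 without 1 batch; it cannot be fitted on 2 groups. Dropping the batch block left the other counts at 19, 20, 1 and 3. The sterol regulatory element was in 1 promoter, and in 10 with 1 mismatch. The median of all genes shifted with Grn loss to 0.11 with no filter and with limma-trend plus 0.5, where the members' medians were 0.67 and 0.62. The share of higher calls over all genes was then 61.9% and 65.7% against 51.7%; with limma-trend plus 0.5 it was 34.6% against 45.3% for editing in GrnKO cells, 78.7% against 65.2% in WT cells, 24.3% against 43.2% for the interaction and 66.5% against 50.7% for edited GrnKO against control WT. The causes were not tested. The shallowest library, at 7069445 counts, limits low genes most; the lowest member count was 33.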
